A study of Drosophila melanogaster with 3 samples.

Results

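The Cpr, Twdl, Lcp and Ccp84A genes encode structural proteins of the insect cuticle, and the position of Snoo on chromatin was examined at these families in whole Drosophila melanogaster pupae. Members were the protein-coding genes of the Ensembl BDGP6 annotation whose symbol starts with Cpr, Twdl, Lcp or Ccp84A, which gave 118 of 13968 protein-coding genes. There were 71 Cpr, 25 Twdl, 15 Lcp and 7 Ccp84A symbols. One of the 71 is the gene Cpr itself, which meets the symbol rule but encodes cytochrome P450 reductase and is no cuticle protein gene. It is counted in the 118 and its values are also given apart.

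Snoo, a coregulator that binds Smad proteins and is related to vertebrate Ski and SnoN, was measured by ChIP-seq in 1 group of 3 biological replicates, numbered 3, 5 and 6. All came from pooled males and females of a snoo-MiMIC line at the pupal stage, of unknown age, in which an eGFP exon placed in an intron of snoo makes a Snoo-eGFP fusion, and sonicated chromatin was precipitated with an anti-GFP antibody. Each replicate had a list of 30000 candidate regions, background included, as did the pooled replicates, of which 29994 in replicate 3 lay on the chromosome arms used. The 6633 regions that passed the authors' threshold on reproducibility, the irreproducible discovery rate (IDR), are the strongest 6633 of the pooled list. No control library was analysed here, the number of reads is unknown, and because whole animals were used, binding in few cells and weak binding in many cells cannot be told apart.

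Cuticle is laid down by the epidermis at each moult, and pupae make the adult cuticle under the control of ecdysone pulses and the nuclear receptors that follow them. Proteins of the Cpr group, to which the Lcp (larval cuticle protein) and Ccp84A genes belong, bind chitin through a conserved domain, the Rebers and Riddiford consensus. Tweedle (Twdl) proteins form another cuticle protein family, and many genes of both kinds stand in tandem arrays that arose by duplication.

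The regions where Snoo summits passed the IDR threshold near a cuticle protein gene are shown first, since the counts below rest on them and on the pair of summits at the gene Cpr, which are not shown because it is no cuticle protein gene. Each line is the plus strand of the dm6 build (RefSeq release 6 assembly), 5′ to 3′, from 100 bp before to 100 bp after the summit. Capitals mark TATAAA (the TATA box), TCAGT (the core of the Initiator) or GAGAG (a motif of the factor Trl) on either strand.
Cpr72Eb, chr3L:16364315-16364515: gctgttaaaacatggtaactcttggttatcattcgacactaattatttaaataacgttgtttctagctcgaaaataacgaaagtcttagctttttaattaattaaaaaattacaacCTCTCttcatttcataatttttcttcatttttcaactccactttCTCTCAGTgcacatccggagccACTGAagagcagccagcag
Cpr62Ba, chr3L:1829609-1829809: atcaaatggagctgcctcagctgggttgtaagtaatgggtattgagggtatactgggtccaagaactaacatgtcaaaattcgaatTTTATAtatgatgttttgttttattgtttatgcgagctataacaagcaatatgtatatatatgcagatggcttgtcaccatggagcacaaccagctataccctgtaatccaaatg
Cpr62Ba, chr3L:1828081-1828281: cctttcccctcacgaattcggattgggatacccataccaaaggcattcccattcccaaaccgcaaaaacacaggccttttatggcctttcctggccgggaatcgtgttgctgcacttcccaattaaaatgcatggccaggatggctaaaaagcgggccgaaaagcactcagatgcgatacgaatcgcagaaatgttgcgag
Cpr73D, chr3L:16957893-16958093: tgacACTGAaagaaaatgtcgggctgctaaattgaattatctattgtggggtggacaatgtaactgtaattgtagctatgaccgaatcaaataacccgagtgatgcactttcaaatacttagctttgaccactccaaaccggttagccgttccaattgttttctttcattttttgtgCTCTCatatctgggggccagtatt
TwdlT, chr3R:27048687-27048887: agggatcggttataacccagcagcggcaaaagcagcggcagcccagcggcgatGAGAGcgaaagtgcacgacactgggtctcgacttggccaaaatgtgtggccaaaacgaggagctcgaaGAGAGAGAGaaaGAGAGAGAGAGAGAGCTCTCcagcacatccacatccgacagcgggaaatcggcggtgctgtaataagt

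The windows differ in base composition. G and C made up 33.8% of the bases at Cpr72Eb, 37.3% and 50.2% at the pair of Cpr62Ba sites, 39.8% at Cpr73D and 55.7% at TwdlT, where the summit stands beside a run of GA repeats. The second Cpr62Ba window held none of the marked letters. These matches are letters in a window and were not tested as binding sites.

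The 50 bp upstream of annotated starts showed what most of these genes share. In the lines that follow, the sense strand is given 5′ to 3′ up to the last base before the start, and capitals mark TATAAA where it begins 45 to 20 bp before the start. All lines shown are from genes with TATAAA at this position. The genes Cpr72Eb and TwdlT had an IDR summit within 1 kb and the others shown had none. Cpr62Ba and Cpr73D, which also had an IDR summit, have no TATAAA there and are not shown.
Cpr72Eb, chr3L:16364849-16364898, plus strand: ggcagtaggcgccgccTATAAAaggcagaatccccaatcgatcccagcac
TwdlT, chr3R:27049170-27049219, plus strand: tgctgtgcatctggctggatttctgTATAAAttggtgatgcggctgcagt
Ccp84Ag, chr3R:6686678-6686727, plus strand: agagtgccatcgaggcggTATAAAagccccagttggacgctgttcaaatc
Ccp84Ab, chr3R:6702878-6702927, minus strand: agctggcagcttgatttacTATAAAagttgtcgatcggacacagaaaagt
TwdlM, chr3R:26619068-26619117, plus strand: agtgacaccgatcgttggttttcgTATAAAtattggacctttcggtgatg
TwdlD, chr3R:26639975-26640024, plus strand: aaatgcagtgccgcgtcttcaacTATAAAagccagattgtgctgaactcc
Cpr64Aa, chr3L:4209179-4209228, minus strand: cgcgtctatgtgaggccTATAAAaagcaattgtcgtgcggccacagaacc
Lcp65Ab1, chr3L:6149498-6149547, plus strand: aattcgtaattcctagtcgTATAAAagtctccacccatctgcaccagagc
Lcp65Ab2, chr3L:6146624-6146673, plus strand: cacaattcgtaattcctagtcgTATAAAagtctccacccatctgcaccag

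Lcp65Ab1 and Lcp65Ab2 are near-identical copies, and the pair of lines shows the same sequence shifted by the difference in their annotated starts. For such copies reads cannot be placed with certainty. Sequence uniqueness was therefore measured as the share of 31-base words within 1 kb of a gene's starts that occur only once on the chromosome arms used. It stood at 26.3% for Lcp65Ab1 and 27.3% for Lcp65Ab2, against a median of 100% over the 118 genes.

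Few cuticle genes had a Snoo summit near a start. A summit of the IDR list lay within 1 kb of a start in 5 of 118 cuticle genes (4.24%, exact 95% interval 1.39% to 9.61%), against 25.2% of all protein-coding genes (3526 of 13968). Without the gene Cpr the count was 4 of 117 (3.42%, 0.939% to 8.52%). In the pooled candidate list, which reaches into background, it was 24 of 118 (20.3%, 13.5% to 28.7%), against 50% of all protein-coding genes (6981). These Clopper-Pearson intervals cover counting error only, and neighbouring genes in an array are not independent.

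Each replicate gave the same order by itself. Replicate 3 had a candidate summit within 1 kb of 32 cuticle genes (27.1%), against 52.5% of all protein-coding genes. Replicate 5 had one at 16 cuticle genes (13.6%), against 55.3% of all genes. Replicate 6 had one at 21 cuticle genes (17.8%), against 55.6% of all genes. The cuticle genes thus lay below all genes in 3 of 3 replicates, with their own count highest in replicate 3 and lowest in replicate 5.

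**Figure D1:**
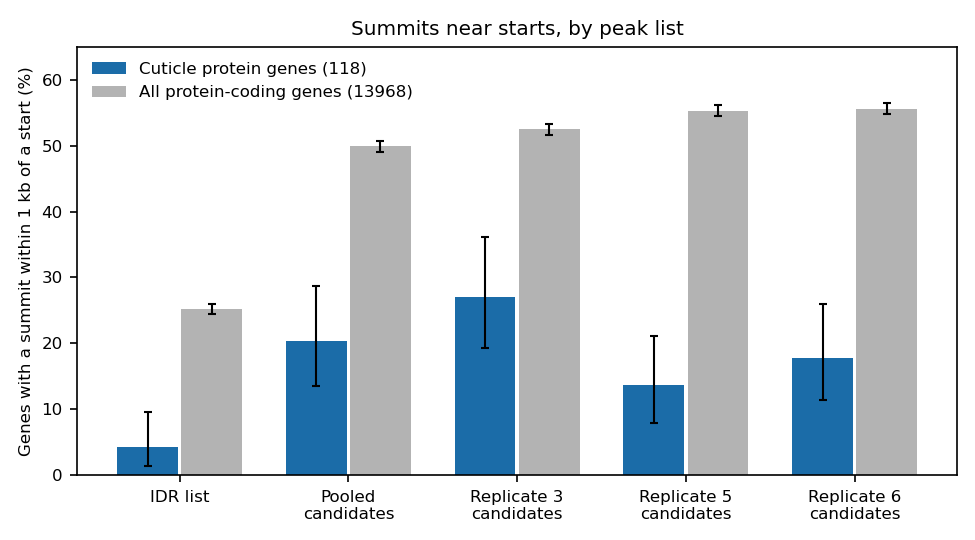
Share of genes with a summit within 1 kb of an annotated start (%, vertical axis) in the IDR list, the pooled candidates and each replicate's candidates. Blue bars are the 118 cuticle genes, grey bars all 13968 protein-coding genes, and error bars are exact 95% intervals; the blue bars run from 4.24% to 27.1% and each stands below its grey neighbour.

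When each replicate was cut to its strongest 6633 regions, each replicate had a summit within 1 kb of 5 cuticle genes (4.24%), against 25.4% of all genes in replicate 3, 26.2% in replicate 5 and 26.5% in replicate 6. They were not the same genes throughout. Cpr62Ba and Cpr72Eb stood among the 5 in all 3 replicates. Replicate 3 added Cpr47Ec, Cpr47Ed and Cpr65Ea, replicate 5 added Cpr, Cpr73D and TwdlT, and replicate 6 added Cpr, Cpr47Ec and Cpr73D. Over the full candidate lists 10 cuticle genes (8.47%) had a summit in all 3 replicates, against 43.5% of all genes. A further 10 had one in 2 replicates and 19 in 1 replicate. No list held any candidate for 79 cuticle genes (66.9%), against 34.5% of all genes.

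By family, the IDR list reached 4 of 71 Cpr genes (5.63%, 1.56% to 13.8%), or 3 of 70 without Cpr itself, and 1 of 25 Twdl genes (4%, 0.101% to 20.4%). It reached 0 of 15 Lcp genes (upper bound 21.8%) and 0 of 7 Ccp84A genes (upper bound 41.0%), against 25.2% of all protein-coding genes. Pooled candidates lay near 20 Cpr genes (28.2%), 2 Twdl genes (8%), 2 Lcp genes (13.3%) and no Ccp84A gene, against 50% of all genes. With intervals this wide, no order among the families can be read from the IDR counts.

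The strongest site belonged to Cpr72Eb (FBgn0036618), a single-start gene of 809 bp. Its peak spanned chr3L:16364213-16364532 in intergenic sequence, with the summit 484 bp upstream of the start. The pooled signal, in the units of the authors' peak caller, was 441.9 and ranked 1224 of 30000. The signal was 151.1 in replicate 3, 105.5 in replicate 5 and 178.4 in replicate 6, at ranks 667, 1805 and 1561 in the replicates' own lists. All 3 ranks fell well within the strongest 6633. A second IDR summit of signal 348.5 lay 1262 bp upstream of the neighbouring Cpr72Ea, outside the 1 kb window.

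Cpr62Ba (FBgn0035279) had a pair of IDR summits, both in its own introns. The stronger, at chr3L:1829611-1829832, had a pooled signal of 246.8 and rank 2865 and lay 767 bp upstream of the nearer of its 2 annotated starts. Its signal was 56.38 in replicate 3, 70.82 in replicate 5 and 114.7 in replicate 6, at ranks 3939, 3338 and 2930. The weaker, at chr3L:1827963-1828398, had a pooled signal of 129 and lay 761 bp downstream of a start. Its signal was 23.09 in replicate 3, 57.21 in replicate 5 and 42 in replicate 6, and only the rank of 4659 in replicate 5 was within the strongest 6633.

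The remaining sites stood at the end of the IDR list. At Cpr73D (FBgn0036680) the summit of the peak chr3L:16957775-16958210 had a pooled signal of 128.9 at rank 6579. It lay 304 bp upstream of a start, inside an intron of the overlapping gene Ogdh, which encodes a subunit of oxoglutarate dehydrogenase. A start of Ogdh also lay within 1 kb of the summit, farther away than that of Cpr73D. Weaker pooled candidates near Cpr73D, of signal 45.06 and 27.72, had a start of Ogdh as the nearest. No candidate of replicate 3 matched the IDR summit within 150 bp, and its signal was 37.58 in replicate 5 and 69.48 in replicate 6.

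At TwdlT (FBgn0029170) the peak chr3R:27048569-27049004 had a pooled signal of 128, rank 6630 of the 6633 that passed. Its summit lay 433 bp upstream of the start in an intron of RYa-R, a neuropeptide receptor gene. The signal was 36.25 in replicate 3, 57.35 in replicate 5 and 29.57 in replicate 6, at ranks 7263, 4645 and 14738, so it was within the strongest 6633 in 1 replicate. Which start, if any, the summits inside introns act on was not tested.

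The gene Cpr, the P450 reductase, had summits of pooled signal 192.6 and 159.2 at 129 and 43 bp upstream of its starts. The stronger had a signal of 32.17 in replicate 3, 48.07 in replicate 5 and 116.4 in replicate 6. Its closest summit was nearer a start than that of any other of the 5 genes, which lay 304 to 761 bp away.

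**Figure D2:**
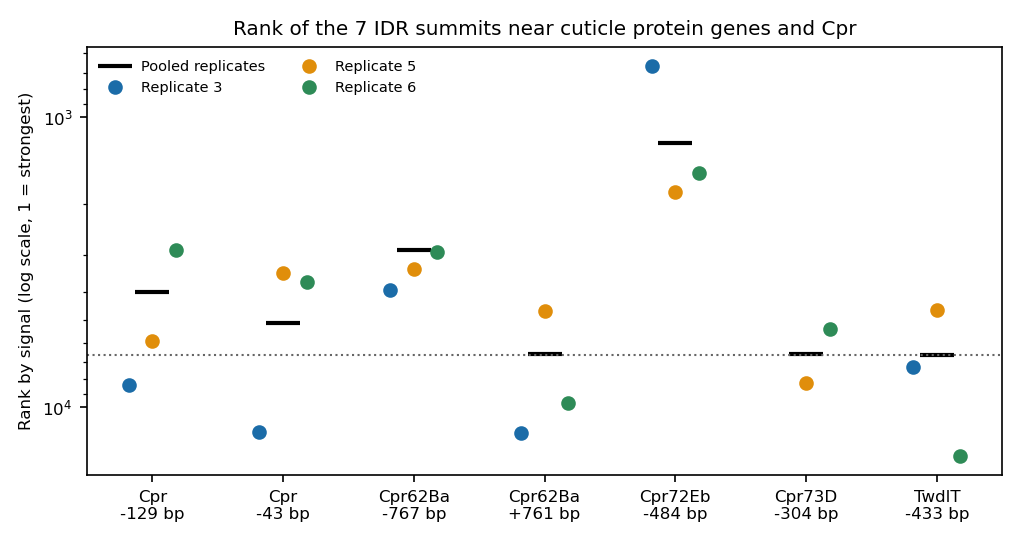
Rank by signal (vertical log axis, 1 at the top is strongest) of the 7 IDR summits near members, labelled by gene and signed distance from the nearest start of that gene in bp. Black bars are the pooled replicates, coloured points the replicates, and the dotted line is rank 6633; at Cpr72Eb and at the upstream summit of Cpr62Ba all 3 points lie above it, and Cpr73D has no point for replicate 3.

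Among genes outside the IDR list, Cpr12A had the highest pooled candidate, with a signal of 103.4 at rank 8412 and 313 bp upstream of its start. Its signal was 28.1 in replicate 3, 25.28 in replicate 5 and 50.07 in replicate 6, all outside the strongest 6633. Cpr49Ah (91.79), Cpr66D (89.74), Cpr97Eb (84.48) and Cpr31A (65.72) followed. Then came Cpr65Aw (49.31), Cpr72Ea (47.87), Cpr51A (47.69) and Cpr67Fb (43.9), and a signal of 41.43 shared by the neighbours Cpr78Ca and Cpr78Cb. Of these, Cpr12A, Cpr66D and Cpr31A had a matching candidate in all 3 replicates.

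Taking all summits rather than genes, 33 pooled candidates lay within 1 kb of a cuticle gene start. Of these, 7 were in the IDR list (21.2%), against 29.2% of the 11196 pooled candidates near any protein-coding start. Their median rank was 18755, against 11678. A matching candidate was present in all replicates for 9 of the 33 (27.3%), against 45.2%.

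IDR summits were far from most cuticle genes. The median distance from the closest start to the nearest IDR summit was 19619 bp for cuticle genes (quartiles 8008 and 32261 bp), against 6267 bp for all protein-coding genes (944 and 18062 bp). The distance exceeded 10 kb for 84 cuticle genes (71.2%), against 39.1% of all genes. The interval between neighbouring IDR summits that held a gene's start had a median length of 61.3 kb for cuticle genes, against 38 kb for all genes. By family the median distance was 14563 bp for Cpr, 25390 bp for Twdl, 18527 bp for Lcp and 68240 bp for Ccp84A genes.

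**Figure D3:**
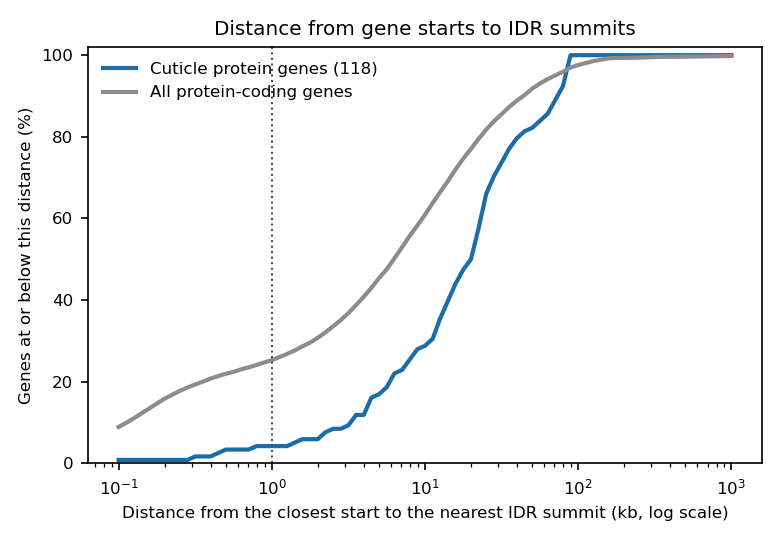
Cumulative share of genes (%, vertical axis) by distance from the closest annotated start to the nearest IDR summit (kb, log axis), in blue for the 118 cuticle genes and in grey for all protein-coding genes with an IDR summit on their arm. At the dotted line of 1 kb the curves stand at 4.24% and 25.3%, and the blue curve reaches 100% at 86127 bp, the distance of TwdlO.

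Most cuticle genes stand in arrays. A run of at least 3 members with at most 20 kb between neighbours was called a cluster, which gave 15 clusters with 85 of the 118 genes. Within clusters 2 of 85 genes had an IDR summit within 1 kb (2.35%, 0.286% to 8.24%) and 12 a pooled candidate (14.1%). Outside them 3 of 33 had an IDR summit (9.09%, 1.92% to 24.3%) and 12 a pooled candidate (36.4%), or 2 of 32 (6.25%) and 11 without Cpr. Both sets lay below all protein-coding genes, at 25.2% for the IDR list and 50% for pooled candidates. The intervals for the IDR list overlap, and the difference between genes in and outside clusters was not tested. Within 10 kb of the clusters there were 15 IDR summits in 541 kb, or 2.77 per 100 kb, against 4.99 per 100 kb on the large arms as a whole. Pooled candidates numbered 79, or 14.6 per 100 kb against 22.4.

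Inside the spans of the clusters alone, from first to last member, 5 IDR summits lay in 241 kb (2.08 per 100 kb) and 21 pooled candidates (8.72 per 100 kb). Within 10 kb, replicate 3 gave 100 candidates (18.5 per 100 kb, against 22.5 on the large arms), replicate 5 gave 70 (12.9 against 22.4) and replicate 6 gave 90 (16.6 against 22.2). The density was below that of the arms in each replicate, least so in replicate 3.

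The Tweedle array from TwdlM to TwdlD was empty in every list. Its 12 genes lie at chr3R:26619118-26641054, and TwdlD is a gene whose mutant alleles change the shape of the body. Neither the IDR list, the pooled candidates nor any replicate had a summit in the array or within 10 kb of it. The nearest IDR summits were 78507 and 73321 bp from its ends. The span held 92.4% unique words, and TwdlP, TwdlS and TwdlD, at 100%, had no candidate either.

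The Ccp84A array, the cuticle cluster of the Antennapedia complex region, had no IDR summit within 10 kb. Its 7 genes, from Ccp84Ag to Ccp84Aa at chr3R:6686728-6704903, lie in an interval of 304 kb without an IDR summit, which ranked 16 by length of the 6627 between neighbouring IDR summits. None of the 7 genes had a candidate within 1 kb of a start in any replicate. Within 10 kb of the array there were 6 candidates in replicate 3, 3 in replicate 5 and 1 in replicate 6. The 4 pooled ones all lay outside its span. The strongest of them (61.16) was 263 bp upstream of Edg84A, a cuticle protein gene under another symbol. Inside the span replicate 3 had 2 candidates, replicate 5 had 1 and replicate 6 had 0.

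The Cpr76B array was similar. Its 4 genes from Cpr76Ba to Cpr76Bd lie in an interval of 264 kb without an IDR summit, rank 28 by length, with no pooled candidate within 10 kb and a single candidate in replicate 6.

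The largest array, 17 genes from Lcp65Ag3 to Cpr65Az at chr3L:6130386-6161589, had 1 IDR summit, of signal 201.2. It lay in intergenic sequence 2059 bp from the start of CG13297, and no cuticle gene of the array had an IDR summit within 1 kb. Within 10 kb replicate 3 had 10 candidates, replicate 5 had 2 and replicate 6 had 4. Unique words made up 83.1% of this span, the lowest of the 15 clusters, and the near-identical copies Lcp65Ab1, Lcp65Ab2, Cpr65Ax1 and Cpr65Ax2 had no candidate in any list.

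Other arrays had IDR summits in or beside them. In the array from Cpr72Ea to Cpr72Ec the strongest was the site upstream of Cpr72Eb, and in that from Cpr62Ba to Cpr62Bc it was the intronic site of Cpr62Ba. Between Cpr65Eb and Cpr65Ec an IDR summit of signal 134.2 lay 2192 bp upstream of Cpr65Eb. Near Cpr67Fa1 to Cpr67Fb the only IDR summit (155) was outside the span, 4499 bp upstream of Aps.

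At several arrays the strongest summits belonged by distance to other genes. Beside the array Cpr78Ca to Cpr78Cc stood a summit of signal 2069, rank 36, which lay 86 bp downstream of the start of CG11309. Another, of 269.7, lay 67 bp upstream of CG12974. The divergent genes CG7632 and pzg also started within 1 kb of the first and the second of these summits. Beside TwdlX to Twdlalpha on the X the strongest of 4 IDR summits (603.9) lay in an intron of goe. Beside Cpr47Ea to Cpr47Eg on 2R the IDR summits were 140 bp upstream of CG9062 (200.1) and 27 bp downstream of the start of CG13220 (161.3). The arrays Lcp1 to Lcp4, Cpr49Aa to Cpr49Ah, Cpr64Aa to Cpr64Ad and TwdlF to TwdlV had none within 10 kb.

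Of the 15 IDR summits within 10 kb of clusters, 5 had a cuticle gene as nearest start and 10 another gene. Of the 79 pooled candidates, 26 had a cuticle gene as nearest start. The 57 other protein-coding genes lying wholly within 10 kb of the clusters had an IDR summit within 1 kb in 6 cases (10.5%), also below the 25.2% of all genes. These other genes include Edg78E, Edg84A and Acp65Aa, which are cuticle protein genes under other symbols. In all, 8 clusters had an IDR summit within 10 kb, 7 had none, and 2 had no pooled candidate there.

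**Figure D4:**
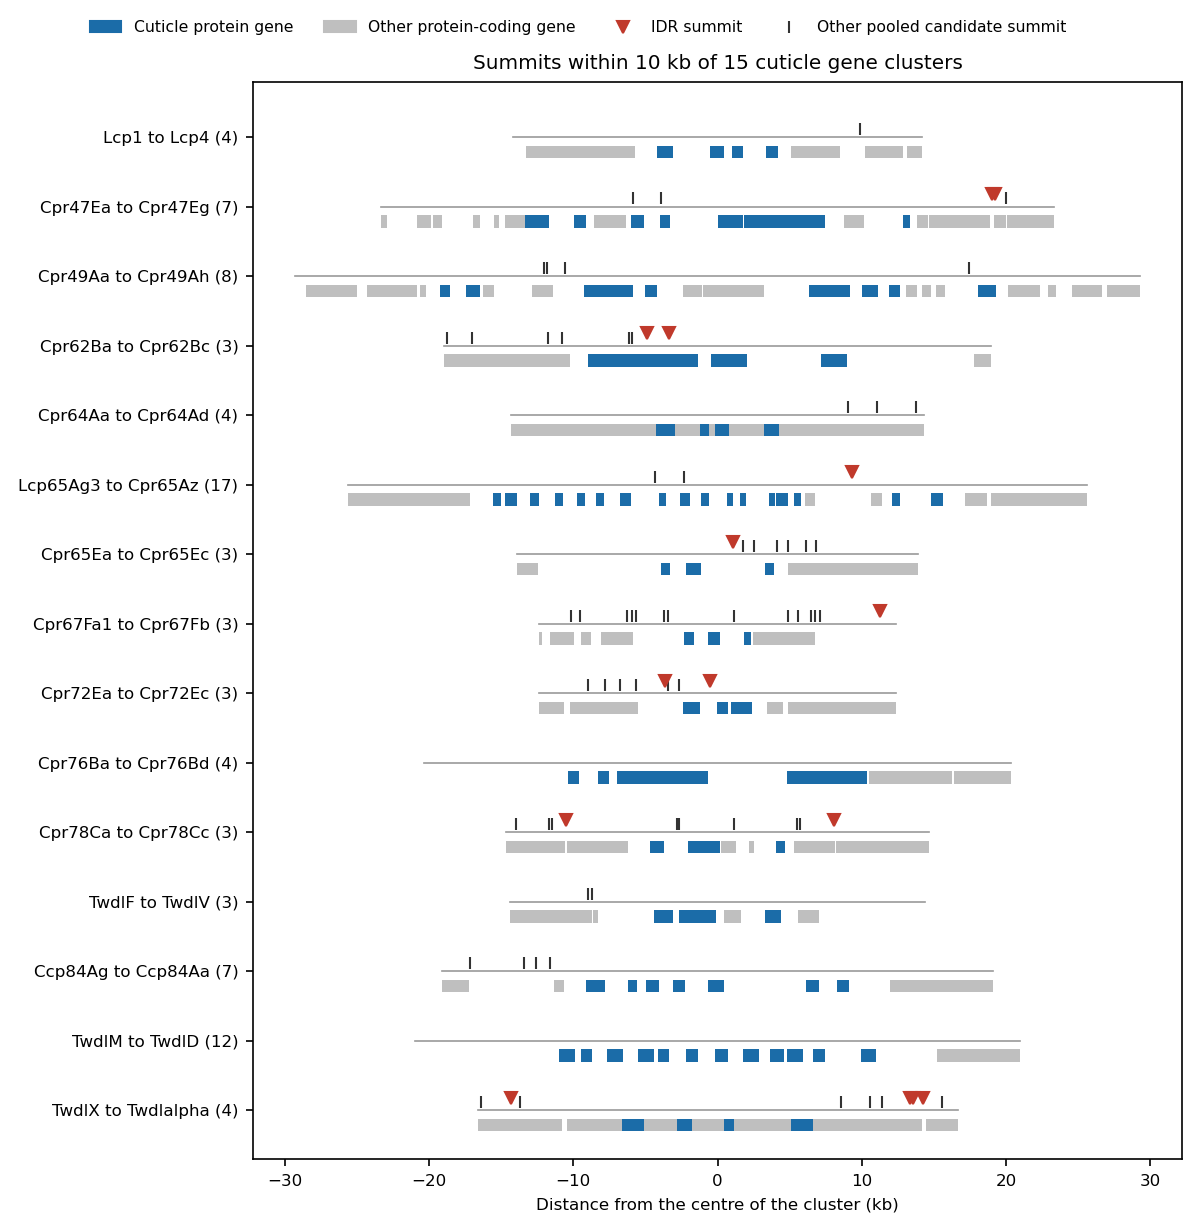
Summits within 10 kb of the 15 clusters, each drawn on its own line by distance from the cluster's centre (kb), with the number of cuticle genes in brackets. Blue boxes are cuticle genes, grey boxes other protein-coding genes, red triangles IDR summits and black ticks other pooled candidates; the lines of TwdlM to TwdlD and Cpr76Ba to Cpr76Bd carry no mark.

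Cuticle genes are short and mostly have a single start. Their median span was 986 bp, against 2164 bp for all protein-coding genes, and 107 (90.7%) had 1 annotated start, against 73.5%. Genes with 1 start and a span of at most 1534 bp, the upper quartile of the cuticle genes, had an IDR summit in 12.9% of cases. Cuticle genes of this kind had one in 1 of 85 cases (1.18%, 0.0298% to 6.38%). The 11 cuticle genes with 2 or more starts included 3 with an IDR summit (27.3%, 6.02% to 61.0%), namely Cpr, Cpr62Ba and Cpr73D. Of these, Cpr is no cuticle protein gene. Over all protein-coding genes the share was 18.8% with 1 start (1934 of 10269) and 25.2% in total (3526 of 13968). With 2 or more starts it was therefore well above 25.2%. The 27.3% of the 11 genes is thus not to be read as level with the background.

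Repeated sequence was looked at in the same way. Of 15 cuticle genes with under 90% unique words, none had an IDR summit or a pooled candidate (exact 95% interval up to 21.8%), against 7.08% and 22.1% of all genes below this limit. Among genes with at least 99% unique words the IDR share was 5 of 92 cuticle genes (5.43%, 1.79% to 12.2%), against 26.7% of all such genes. Base composition within 1 kb of starts was alike, with a median of 44.0% G and C for cuticle genes against 43.5% for all genes.

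Most cuticle genes had a TATA box at the core promoter. TATAAA began 45 to 20 bp before the most upstream start, on the sense strand, in 70 of 117 cuticle genes without Cpr (59.8%), against 8.81% of all protein-coding genes (1230). By family it was 39 of 70 Cpr, 15 of 25 Twdl, 11 of 15 Lcp and 5 of 7 Ccp84A genes. It was rarer among genes with an IDR summit within 1 kb (118 of 3526, 3.35%) than among genes without one (1112 of 10442, 10.6%). The genes shown above illustrate it, with the element at 34 bp before the start in Cpr72Eb, 25 bp in TwdlT, 26 bp in TwdlM and 31 bp in Ccp84Ab.

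Genes with this TATA box had few Snoo summits whether or not they were cuticle genes. An IDR summit lay within 1 kb of 2 of 70 cuticle genes with the box (2.86%), against 9.59% of all genes with it. Among genes without the box it was 2 of 47 cuticle genes (4.26%), against 26.8% of all such genes. When the box, 1 start and a span of at most 1534 bp were required together, the share was 1 of 56 cuticle genes (1.79%), against 4.22% of all such genes (31 of 735), and 7 of 56 cuticle genes had a pooled candidate (12.5%), against 15.5%. Within that class of short TATA genes the cuticle genes were near the background share, and nothing particular to them can be read from their count. The part of promoter type and gene length in the low share over all 118 genes was not tested.

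**Figure D5:**
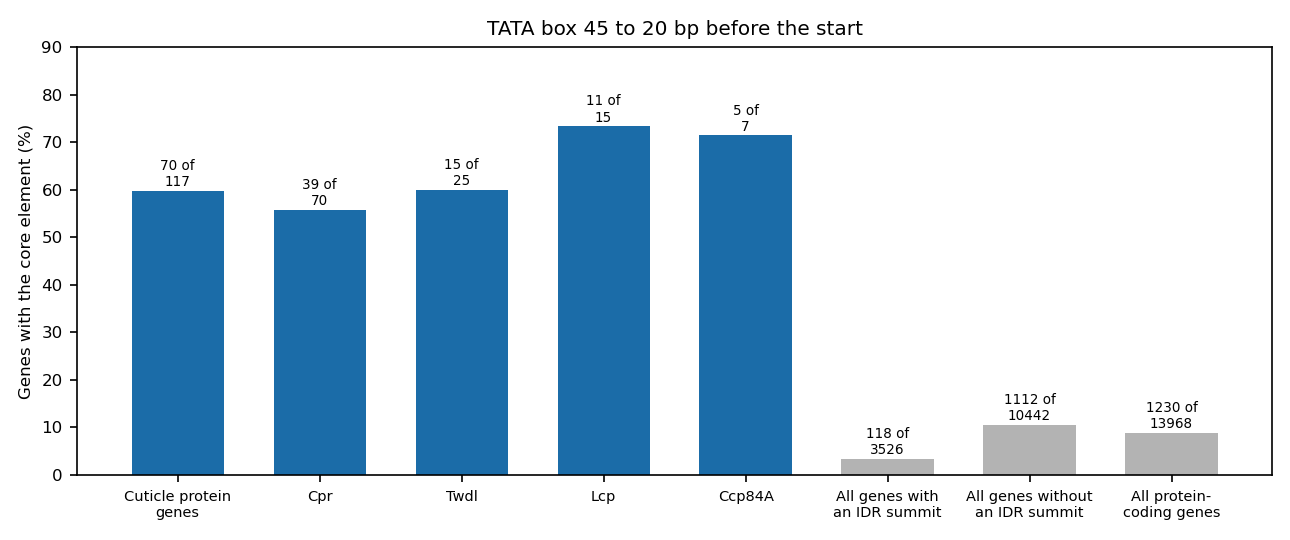
Share of genes (%, vertical axis) with the TATA box starting 45 to 20 bp before the start, with the number of genes over each bar. Blue bars are the 117 cuticle protein genes and their 4 families, grey bars are all genes with an IDR summit within 1 kb, all genes without one and all protein-coding genes; the blue bars stand between 55.7% and 73.3% and the grey ones between 3.35% and 10.6%.

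Other letters, counted on both strands from 250 bp before to 50 bp after the start, are given beside all genes. TATAAA anywhere in this window, which includes the boxes above, was found in 74.4% of cuticle genes and 45.8% of all genes. The DNA replication-related element TATCGATA was found in 1 of 117 (0.855%), against 9.36% of all genes and 12.5% of those with an IDR summit. GAGAG was at 30.8% against 29.7%, TCAGT at 53.0% against 51.5%, the E box CACGTG at 2.56% against 4.20% and the GC-rich GGCGCC at 6.84% against 4.54%. AAGGTCA, a core site of the nuclear receptor Ftz-f1, was in no cuticle gene window, against 2.11% of all. No match says only that these letters are not in the window.

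Genes that act with the cuticle proteins were counted in the same way, from 4 lists. Cuticle proteins under other symbols had an IDR summit at 1 of 24 (4.17%, 0.105% to 21.1%), against 25.2% of all protein-coding genes, namely Peritrophin-A, a chitin-binding protein gene (272.1), and a pooled candidate at 6 (25%), against 50%. Tanning and pigment genes had 1 of 15 (6.67%, 0.169% to 31.9%), namely Pu, which encodes GTP cyclohydrolase (202.7), and 9 with a pooled candidate (60%). Genes for chitin and the apical matrix had 9 of 40 (22.5%, 10.8% to 38.5%), near the 25.2% of all genes, and 26 with a pooled candidate (65%, against 50% of all genes). Their highest signals were at the chitinase-like growth factor gene Idgf2 (442.5), the chitinase gene Cht11 (347.6) and the zona pellucida domain genes tyn (316.5) and qsm (315.4).

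The regulators were different in number. Among 20 ecdysone-response and epidermal transcription factor genes, 15 had an IDR summit within 1 kb (75%, 50.9% to 91.3%), against 25.2% of all genes, and 19 had a pooled candidate. The highest signals were at the nuclear receptor genes Eip75B (937.5) and Hr3 (880.9), at grh (477.6), which encodes the epidermal factor Grainy head, and at ftz-f1 (408.7), a competence factor for the prepupal response to ecdysone. These genes have a median span of 37521 bp and up to 9 starts. The median span was 986 bp for the cuticle genes and 2164 bp for all protein-coding genes. The share of the regulators therefore does not compare like with like with that of either set. The chemosensory receptor genes Or, Gr and Ir had a median span of 1691 bp, and 93.3% of them had 1 start. They had an IDR summit in 4 of 179 cases (2.23%) and a pooled candidate in 16 (8.94%), against 25.2% and 50% of all genes.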

How the data were processed

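Peak lists of anti-GFP ChIP-seq from 3 replicates of 1 group, numbered per the labels, were used on dm6. The deposited signal of a peak is a value of the authors' own peak calling. The deposited −log10 q-value served to order peaks of equal signal. Neither the aligner and caller nor the IDR threshold is stated in the labels or headers, and the control was not analysed here. Signals were compared within a list, no read depth is known, and intervals cover counting error over genes.

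Starts came from Ensembl release 115 of BDGP6, sequence from the RefSeq release 6 assembly of that build. A summit was near a gene within 1000 bp of any annotated start, and summits within 150 bp were counted as shared. Clusters, 31-base words and promoter windows were computed with python 3.11.15, numpy 2.4.6 and scipy 1.17.1, and figures with matplotlib 3.10.9. The counting was tested on simulated data. With 1 group there was no test between conditions, and no list was tested for enrichment. The named genes were those with an IDR summit within 1 kb, 10 others by candidate signal with Cpr78Cb, which shares the summit of the last, up to 4 summits at each cluster and up to 4 bound genes of each list. Other genes, such as those in the account of replicates and of unique sequence, were named after their values were seen. Members and lists were chosen with earlier results of these data known. Alternatives were other windows, flanks and cluster gaps, stricter lists, gene bodies, interval overlap, merged intervals, the gene Cpr left out, and each replicate left out.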

Additional observations from a re-analysis of the deposited data

How the results depend on the processing

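The count of 5 cuticle genes with an IDR summit within 1 kb was 4 at 500 bp, 7 at 2000 bp and 20 at 5000 bp, where all protein-coding genes stood at 21.9%, 30.7% and 45.2%. It was 2 in the strongest 3317 peaks, against 14.6% of all genes. It was also 2 among the 3682 peaks found within the strongest 6633 regions of every replicate, against 16.1% of all genes. Each replicate was then left out in turn, using summits shared by the remaining pair, each cut to its strongest 6633 regions. The count of 5 fell to 3 on leaving out replicate 3, 3 on leaving out replicate 5 and 2 on leaving out replicate 6. All genes stood at 19.7%, 18.1% and 19.1%. The count of 24 with a pooled candidate was 14 at 500 bp, 50 at 5000 bp and 10 in the strongest 15000 regions, against 45.6%, 66.8% and 41.3% of all genes. From summits shared by the remaining pair in their full candidate lists, leaving out replicate 3 gave 10, replicate 5 gave 13 and replicate 6 gave 7. All genes stood at 42.1%, 39.6% and 43%. The 15 IDR summits within 10 kb of clusters were 5 with no flank, 7 with a flank of 5000 bp, 30 with 20000 bp and 8 in the strongest 3317 peaks. They were 7 where every replicate had the summit within its strongest 6633 regions. With the same cut, summits shared by the remaining pair numbered 10, 8 and 9 without replicates 3, 5 and 6. The 79 pooled candidates were 21 with no flank, 155 with 20000 bp and 38 in the strongest 15000 regions. Summits shared by the remaining pair in their full candidate lists numbered 36, 39 and 35 without replicates 3, 5 and 6. Over the 42 settings tried, 17 counts were within 1.5 times of the reported one. Stricter lists hold fewer summits by construction, and wider windows more. Read depth, which limits what a missing summit means, is unknown. No paired analysis was possible because there is 1 group.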
